A study of Mus musculus with 6 samples.

Results

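The expression of 46 genes that copy DNA in S phase was followed through epithelial-to-mesenchymal transition (EMT) and its reversal in EpH4, a non-cancer mouse mammary epithelial cell line. The genes were listed by name for their place in DNA replication, with no threshold on their values. All 46 were found among the 17428 genes of the expression table, 43 under their current symbol and 3 (*Orc1*, *Orc6* and *Cdc45*) under an older one, and all 46 passed the filter on low values that left 13893 genes to be tested. E cells were untreated EpH4 cells, M cells had been grown with TGFβ1 for 7 days, and RE cells were M cells returned to normal medium for another 4 days. The 3 states are therefore stages of 1 isogenic cell line in culture, without animals or other lines, and each was sequenced from 2 biological replicates. The p-values rest on a spread between replicate cultures that is estimated over all 3 states together and moderated across genes. The third state thus enters each comparison of 2 states. The labels do not say whether E cells were kept in culture as long as M and RE cells, so TGFβ1 and time in culture cannot be told apart.

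Replication is prepared in G1, when the origin recognition complex, with Cdc6 and Cdt1, loads rings of Mcm2 to Mcm7 onto DNA. At the start of S phase Cdc45 and the GINS proteins join these rings to form the active helicase, after which DNA polymerases α, δ and ε, the sliding clamp Pcna and the clamp loader RFC copy the strands. Most of the genes concerned are transcribed late in G1 under E2F transcription factors, and they serve widely as markers of dividing cells.

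Expression is given as normalized coverage, that is, the sequenced bases summed over a gene and scaled to a library's total in ppm after TMM normalization. It is not divided by gene length, so a value is compared between libraries and never between genes. Differentially expressed genes (DEGs) were more than 2-fold apart, that is, over 1 on the log2 scale, with a limma adjusted p under 0.01. Genes that passed a looser test, an adjusted p below 0.05 at any fold, are described as having risen or fallen. Signed values beside a p-value are log2 fold changes with, after ±, their standard error, taken as the later state minus the earlier one in the order E, M, RE. The libraries held between 35782513 and 47928557 reads' worth of 50 bases. The least covered of the 46 genes, *Gins3*, had at least 229.7 reads' worth in each library, so that the spread between the 2 replicates limits the precision more than depth does. Coverage of *Pcna* and *Tyms* is uncertain, since the mouse annotation names 2 and 1 pseudogenes after them. The study's methods mention the mapping of unique reads, but how reads that match several places entered the coverage is not given.

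The replication genes were mostly highest in the M cells and lowest in the RE cells. The mean was highest in M and lowest in RE for 26 of the 46 (56.5%, against 14.7% of all genes tested), highest in E and lowest in RE for 13 (28.3%, against 15.5%), and highest in M and lowest in E for 6 (13%, against 21%). The remaining gene, *Pold2*, a subunit of DNA polymerase δ, had its highest mean in RE and its lowest in M. The median over the 46 genes of the log2 value about each gene's own mean was 0.17 and −0.10 in the E libraries, 0.33 and 0.20 in the M libraries and −0.44 and −0.20 in the RE libraries, while that of all genes tested lay between −0.01 and 0.02. The E libraries therefore lay on both sides of the genes' means, and the M and RE libraries did not overlap. In bulk RNA, a different share of cells in S phase and a different amount of RNA per cell cannot be told apart.

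**Figure D1:**
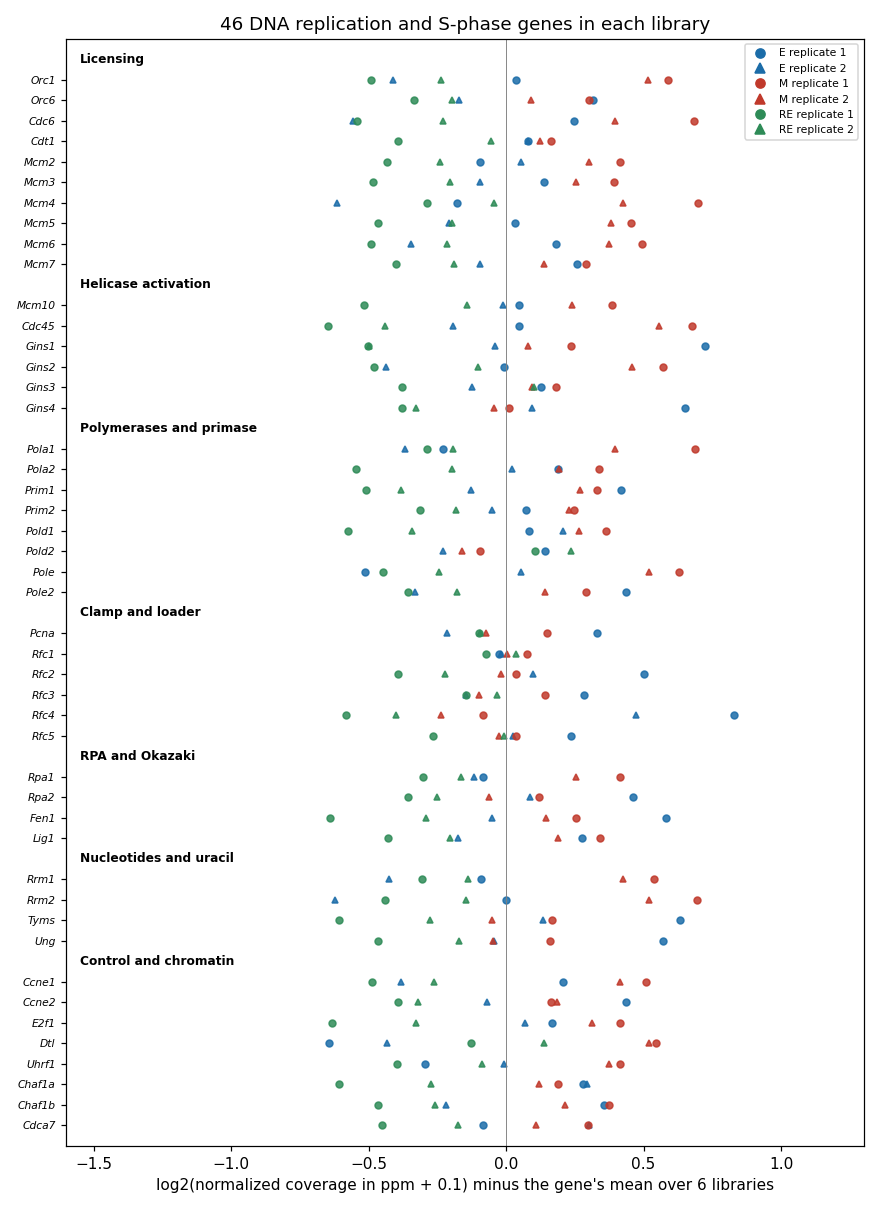
Each row is 1 of the 46 replication genes, ordered by role, and each point is 1 library (E blue, M red, RE green, circles replicate 1 and triangles replicate 2). The horizontal axis is log2(normalized coverage in ppm + 0.1) minus the gene's mean over the 6 libraries, and the M points lie to the right of both RE points for 41 of the 46 genes.

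Upstream sequence was available for 38 of the 46 genes, from RefSeq annotation of the mouse build GRCm38.p6, as windows from 250 bases before to 50 bases after a transcript start. Windows were searched on both strands for 4 exact strings that E2F proteins are known to bind, namely TTGGCGC or TTCCCGC or TTCGCGC or TTGCCGC. At least 1 of them was present in 25 of the 38 genes (65.8%), against 19.1% of 8816 tested genes with a window and 10.9% of 27025 genes in the annotation. The string CCAAT was present in 23 (60.5%, against 42.9% of the tested genes), and the strings TTTGAA and TTCGAA, known from genes of late cell-cycle phases, in 7 (18.4%, against 16.4%). A match of such short strings is a description of the letters and not evidence of binding. The 200 bases before the start are shown for the 3 genes that became DEGs in any comparison and for the 3 with the most E2F strings in that stretch, 5′ to 3′ on the gene's own strand and with the E2F strings of either strand in capitals.

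Dtl (chr1:191575545-191575744, minus strand): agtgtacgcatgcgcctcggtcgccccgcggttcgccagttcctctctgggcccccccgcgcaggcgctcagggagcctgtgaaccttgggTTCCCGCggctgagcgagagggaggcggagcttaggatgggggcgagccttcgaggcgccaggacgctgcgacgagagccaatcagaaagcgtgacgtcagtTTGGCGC
Cdc45 (chr16:18811973-18812172, minus strand): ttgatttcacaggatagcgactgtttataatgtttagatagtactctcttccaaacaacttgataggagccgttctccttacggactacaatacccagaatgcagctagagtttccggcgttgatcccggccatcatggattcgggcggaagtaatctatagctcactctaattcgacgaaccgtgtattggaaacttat
Rfc4 (chr16:23127731-23127930, minus strand): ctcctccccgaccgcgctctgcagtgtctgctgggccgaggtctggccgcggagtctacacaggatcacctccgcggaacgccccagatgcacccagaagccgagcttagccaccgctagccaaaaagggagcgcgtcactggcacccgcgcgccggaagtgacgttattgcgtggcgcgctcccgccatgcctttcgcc
Mcm5 (chr8:75109309-75109508, plus strand): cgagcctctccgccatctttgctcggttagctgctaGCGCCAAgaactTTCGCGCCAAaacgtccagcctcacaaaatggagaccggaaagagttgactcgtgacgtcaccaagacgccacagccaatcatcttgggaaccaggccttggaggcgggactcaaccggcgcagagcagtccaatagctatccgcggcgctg
Mcm6 (chr1:128359706-128359905, minus strand): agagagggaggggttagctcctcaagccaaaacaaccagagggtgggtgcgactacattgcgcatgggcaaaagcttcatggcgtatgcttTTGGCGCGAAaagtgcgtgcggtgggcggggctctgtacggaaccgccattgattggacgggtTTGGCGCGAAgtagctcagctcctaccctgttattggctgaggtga
Pola1 (chrX:93632156-93632355, minus strand): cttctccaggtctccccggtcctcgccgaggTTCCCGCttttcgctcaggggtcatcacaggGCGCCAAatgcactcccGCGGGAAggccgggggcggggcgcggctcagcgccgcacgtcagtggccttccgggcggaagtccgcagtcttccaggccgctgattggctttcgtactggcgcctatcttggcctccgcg

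*Mcm6* holds 4 E2F strings in the bases shown, in 2 pairs in which TTGGCGC and, on the other strand, TTCGCGC overlap, and *Mcm5* and *Pola1* hold 3 each. *Dtl* holds 2. *Cdc45* holds none of them in its whole window, and the single string in the window of *Rfc4* lies after the start. The median log2 fold change in M vs. RE was −0.64 for the 25 genes that hold one and −0.57 for the 13 that do not, a difference that was not tested.

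Removal of TGFβ1 (M vs. RE) showed the most uniform difference. Of the 46 genes, 27 (58.7%) fell in the RE cells, against 14.6% of all genes tested, and 0 rose by limma, against 17% of all genes. At an unadjusted p below 0.05 by limma, 0 of the 46 were higher in RE, against 3054 of the 13893 genes tested. Another 18 were lower without passing the test, so that 45 of 46 had a lower mean in RE, and 41 were lower in both RE libraries than in both M libraries, against 40.2% of all genes. The median log2 fold change was −0.61, with quartiles of −0.75 and −0.39, and that of all genes was −0.02. Only *Cdc45* was a DEG among the 46 (DEGs made up 4.79% of all genes in this direction and 8.08% in the other). The count of 27 depended on single libraries. It was 1 without the first M or the first RE library, 4 without the second M library, 11 without the second RE library and 40 without either E library, while the median stayed between −0.73 and −0.48 in these 6 fits. With library totals in place of TMM, which moved the median of all genes to 0.18, the median of the 46 was −0.41 and 8 of the 27 kept their call, namely *Orc1*, *Mcm2*, *Mcm5*, *Cdc45*, *Pola1*, *Pold1*, *Pole* and *E2f1*.

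**Figure D2:**
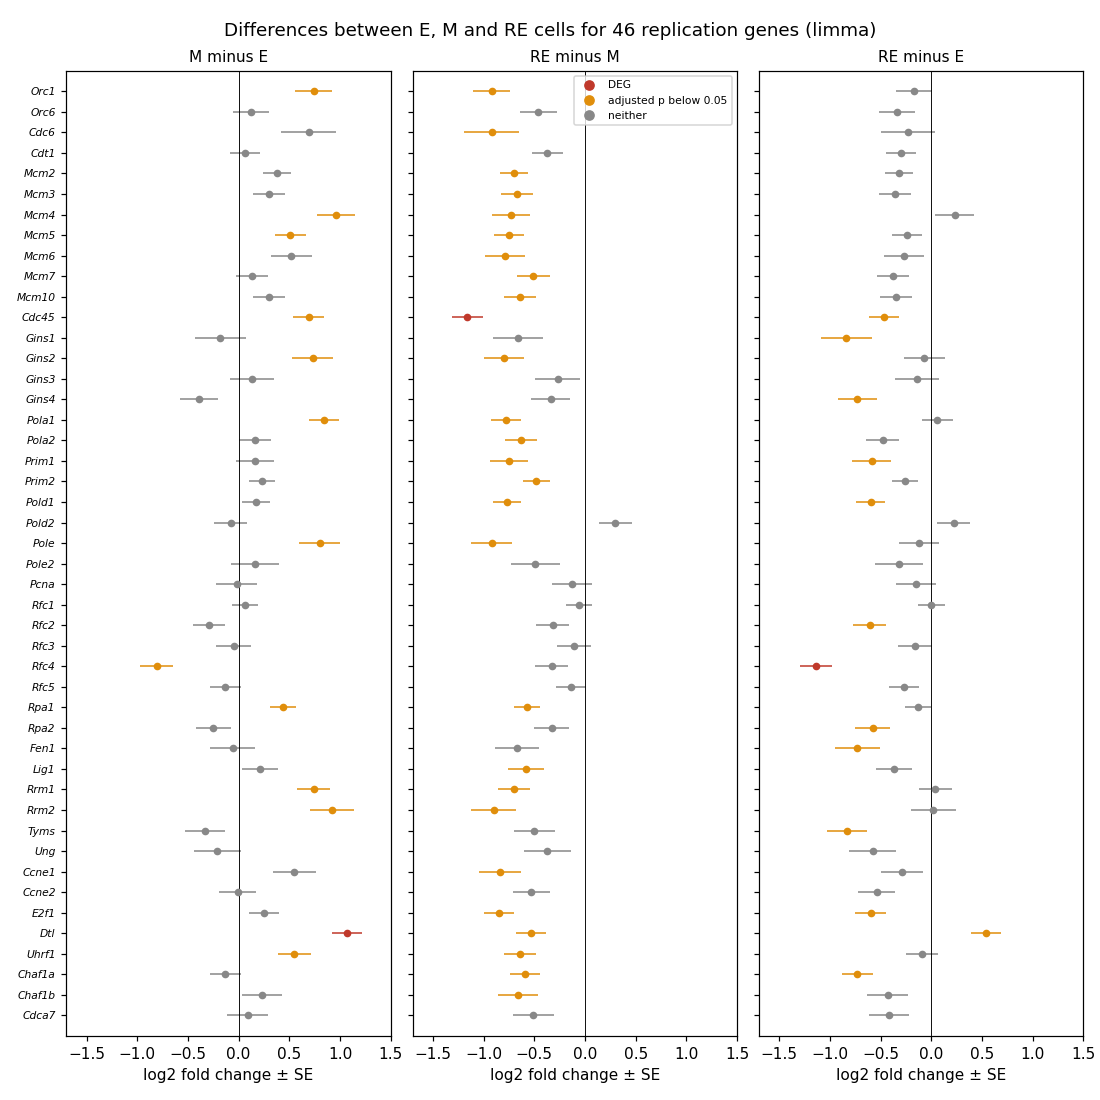
Log2 fold change with its standard error (horizontal bars, limma, 2 libraries per group) for each of the 46 replication genes in the 3 comparisons, with DEGs in red, other genes with an adjusted p below 0.05 in orange and the rest in grey. In the middle panel 45 of the 46 genes lie to the left of 0, and *Pold2* lies to the right at 0.30.

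The 10 licensing genes serve to load the helicase onto origins. In M vs. RE 8 of the 10 fell (80%, against 14.6% of all genes tested) and all 10 were lower in both RE libraries than in both M libraries, with a median log2 fold change of −0.71. In E vs. M 3 of the 10 rose (30%, against 21.5% of all genes) and all 10 had a higher mean in M (median 0.44), though *Cdt1* (0.06), *Orc6* (0.12) and *Mcm7* (0.13) differed little. In E vs. RE 0 of the 10 passed the test by limma, or an unadjusted p below 0.05 (median −0.29). Of all genes 12.9% passed the test there as lower and 17.2% as higher. *Orc1*, the origin recognition subunit whose level is set by the cell cycle, was at 38.98 and 28.58 ppm in E, 57.31 and 54.45 in M and 27.03 and 32.32 in RE. It rose in M (0.74 ± 0.18, limma adjusted p = 0.0151) and fell in RE (−0.92 ± 0.18, adjusted p = 0.00818), where its 2 libraries overlapped with those of E.

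*Cdc6*, the loading factor that acts beside *Orc1*, was at 43.52 and 24.87 ppm in E, 58.88 and 48.28 in M and 25.14 and 31.27 in RE. The M libraries lay above all others, and the fall in RE passed the test (−0.92 ± 0.27, limma adjusted p = 0.0339), whereas the difference from E to M did not (0.69, adjusted p = 0.071). *Mcm4* was at 313.2 and 231 ppm in E, 575.1 and 475.5 in M and 290 and 343.3 in RE. Both M libraries were above the other 4, with a rise of 0.96 on the log2 scale from E (± 0.19, limma adjusted p = 0.00636) and a fall of −0.73 in RE (± 0.19, adjusted p = 0.0245). *Mcm2*, a subunit of the same ring, was at 311.4 and 345.5 ppm in E, 442.8 and 410.1 in M and 245.9 and 281.1 in RE, so that the 3 states did not overlap. It fell in RE (−0.70 ± 0.14, limma adjusted p = 0.0084) and was at 0.38 in E vs. M (adjusted p = 0.0646).

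The 6 ring subunits *Mcm2* to *Mcm7* summed to 2101 and 1733 ppm in the E libraries, 2828 and 2555 in the M libraries and 1500 and 1786 in the RE libraries. The M sums were the highest, and those of E and RE overlapped. In the first RE library each of the 6 was below its own mean, by between −0.49 and −0.29 on the log2 scale, and in the second by between −0.24 and −0.04, whereas in the first M library they were above it by 0.29 to 0.70. The other 6 licensing genes, *Orc6*, *Cdt1*, *Mcm3*, *Mcm5*, *Mcm6* and *Mcm7*, had log2 fold changes between −0.79 and −0.37 in M vs. RE and between 0.06 and 0.52 in E vs. M. Of these, *Mcm5* rose in M (0.51, limma adjusted p = 0.0336).

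All 6 helicase activation genes had a lower mean in RE than in M, against 51.2% of all genes tested. Of the 6, 3 fell (50%, against 14.6% of all genes), among them the gene with the largest difference of the 46 in M vs. RE. *Cdc45*, the subunit that completes the active helicase, was at 98.86 and 83.74 ppm in E, 153.1 and 140.9 in M and 61 and 70.41 in RE. The 3 states did not overlap. It rose in M (0.69 ± 0.15, limma adjusted p = 0.00813), fell by 55.3% in RE (−1.16 ± 0.15, adjusted p = 0.00101) and was also lower in RE than in E (−0.47, adjusted p = 0.0456). With library totals in place of TMM the fall was at −0.96, and so no longer a DEG, and the rise was at 0.39 (adjusted p = 0.0689). The E vs. RE difference did not pass the test without the filter on low values (adjusted p = 0.0556). For the fall in RE the adjusted p lay between 0.0107 and 0.0237 without any 1 of the M and RE libraries.

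The GINS genes, whose products bind beside Cdc45, did not share 1 pattern. *Gins2* was at 20.74 and 15.35 ppm in E, 30.95 and 28.61 in M and 14.89 and 19.41 in RE, and it rose in M (0.73, limma adjusted p = 0.0231) and fell in RE (−0.80, adjusted p = 0.0209). *Gins1* was at 18.79 and 11.02 ppm in E, 13.36 and 12 in M and 7.98 and 7.996 in RE, with the M libraries inside the range of E. It was lower in RE than in E (−0.84 ± 0.25, limma adjusted p = 0.0399). *Gins4* was also lower in RE than in E (−0.73, adjusted p = 0.0259), *Gins3* passed no test, and *Mcm10*, which helps to start the helicase, fell in RE (−0.64, adjusted p = 0.0187 in M vs. RE).

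Among the 8 polymerase and primase genes 6 fell in M vs. RE (75%, against 14.6% of all genes tested). In E vs. M 2 rose (25%, near the 21.5% of all genes). *Pola1*, the catalytic subunit of polymerase α, was at 95.55 and 86.73 ppm in E, 180.2 and 147.3 in M and 91.64 and 97.93 in RE. It rose in M (0.84 ± 0.15, limma adjusted p = 0.00347), fell in RE (−0.78 ± 0.15, adjusted p = 0.00609), and its RE and E libraries overlapped. *Pole*, the catalytic subunit of the leading-strand polymerase ε, was at 97.6 and 144.6 ppm in E, 215.6 and 199.4 in M and 102 and 117.6 in RE, with the RE libraries inside the range of E. It followed the same course, at 0.80 in E vs. M (limma adjusted p = 0.0147) and −0.92 in M vs. RE (adjusted p = 0.0109).

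*Pold1*, the catalytic subunit of polymerase δ, was at 91.59 and 99.89 ppm in E, 111.4 and 103.9 in M and 58.07 and 68.24 in RE. The 3 states did not overlap, and it was lower in RE than in M (−0.77 ± 0.14, limma adjusted p = 0.00513) and than in E (−0.60 ± 0.14, adjusted p = 0.0166). *Pold2*, its partner subunit, went the other way in M vs. RE without passing the test, though it passed in a fit of only the M and RE libraries. It was at 144.5 and 111.9 ppm in E, 122.9 and 117.3 in M and 141.1 and 154.5 in RE, a log2 fold change of 0.30 (limma adjusted p = 0.187). The primase genes *Prim1* (−0.75, limma adjusted p = 0.0205) and *Prim2* (−0.48, adjusted p = 0.0243) and *Pola2* (−0.63, adjusted p = 0.0203) fell in RE, and *Pole2* did not pass the test (−0.49, adjusted p = 0.167).

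The clamp and its loader stood at smaller differences in M vs. RE, with a median log2 fold change of −0.14. Of these 6 genes 0 passed the test by limma, or an unadjusted p below 0.05. Of all genes tested 14.6% fell and 17% rose. *Pcna*, the sliding clamp and a common marker of dividing cells, was at 26.4 and 18.05 ppm in E, 23.22 and 19.94 in M and 19.59 and 19.62 in RE. The M libraries lay inside the range of E, and its log2 fold change was −0.02 from E to M, −0.13 from M to RE and −0.15 from E to RE, with adjusted p between 0.593 and 0.942 by limma. *Rfc1*, the large subunit of the loader, was between 316 and 350 ppm in all 6 libraries.

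*Rfc4*, a small subunit of the loader, was the gene with the largest fall from E. It was at 110.6 and 86.38 ppm in E, 58.67 and 52.75 in M and 41.5 and 47.02 in RE, and the 3 states did not overlap. It fell in M (−0.81 ± 0.16, limma adjusted p = 0.00642), the only one of the 46 to do so, and was a DEG in E vs. RE (−1.14 ± 0.16, adjusted p = 0.00283). The adjusted p lay between 0.0147 and 0.0501 without any 1 of the M and RE libraries, and the difference was −0.97 without the first E library. Removal of each library's trend on transcript length and GC content took the difference to −0.90. *Rfc2* was also lower in RE than in E (−0.61, limma adjusted p = 0.0289), from 121.6 and 91.91 ppm to 65.37 and 73.63, with M between them at 88.01 and 84.76. *Rfc5* was at 50.22 and 43.38 ppm in E, 43.62 and 41.84 in M and 35.41 and 42.33 in RE, and passed no test.

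Of the single-strand binding and Okazaki fragment genes, *Rpa1*, the large subunit of RPA, rose in M (0.44, limma adjusted p = 0.0314) and fell in RE (−0.57, adjusted p = 0.0146). *Rpa2*, its partner, was at 51.43 and 39.67 ppm in E, 40.51 and 35.71 in M and 29.1 and 31.34 in RE, and passed the test in E vs. RE alone (−0.58, limma adjusted p = 0.0359). *Fen1*, the flap endonuclease, was at 131.9 and 85.07 ppm in E, 105.1 and 97.57 in M and 56.53 and 71.99 in RE. The M libraries lay inside the range of E, both RE libraries lay below all others, and the difference passed the test in E vs. RE (−0.73, limma adjusted p = 0.0427) but not in M vs. RE (−0.67, adjusted p = 0.0557). *Lig1*, the ligase that joins the fragments, was at 211.1 and 154.5 ppm in E, 220.9 and 198.7 in M and 129.6 and 151.5 in RE, and fell in M vs. RE (−0.58, limma adjusted p = 0.0439).

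The genes of nucleotide supply split. *Rrm1* and *Rrm2*, the large and small subunits of ribonucleotide reductase, were both highest in M. *Rrm1* was at 464.3 and 368 ppm in E, 718.2 and 665.3 in M and 400.2 and 449.4 in RE, with log2 fold changes of 0.74 in E vs. M (± 0.16, limma adjusted p = 0.00898) and −0.70 in M vs. RE (± 0.16, adjusted p = 0.0144). *Rrm2* was at 80.97 and 52.6 ppm in E, 131.2 and 116.2 in M and 59.71 and 73.27 in RE, with 0.92 (limma adjusted p = 0.0128) and −0.90 (adjusted p = 0.018). For both, the RE libraries lay inside the range of E. *Tyms*, the enzyme that makes thymidylate, was instead at 106 and 75.11 ppm in E, 76.83 and 65.9 in M and 44.86 and 56.36 in RE, and was lower in RE than in E (−0.83 ± 0.20, limma adjusted p = 0.0206). *Ung*, which removes uracil from DNA, passed no test.

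All 8 genes of S-phase control and chromatin assembly were lower in both RE libraries than in both M libraries, against 40.2% of all genes tested. Of the 8, 6 fell (75%, against 14.6% of all genes). *Dtl*, the substrate adaptor of the ubiquitin ligase that degrades Cdt1 during S phase, was at 83.72 and 96.73 ppm in E, 191 and 187.7 in M and 119.7 and 143.8 in RE. The 3 states did not overlap. It was a DEG in E vs. M, 2.1-fold higher in M (1.07 ± 0.15, limma adjusted p = 0.00117), fell in M vs. RE (−0.53, adjusted p = 0.0295) and was the only one of the 46 to pass the test as higher in RE than in E (0.54, adjusted p = 0.0286), a call lost at 0.34 (adjusted p = 0.0785) with length and GC content corrected. With library totals in place of TMM its rise in E vs. M was at 0.77, with length and GC content corrected at 0.86, without the first E library at 0.97, and without either M library its adjusted p was 0.0221 or 0.0206, so that it was no longer a DEG.

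*E2f1*, an activator of genes of this kind, was at 82.79 and 77.26 ppm in E, 98.37 and 91.63 in M and 47.47 and 58.69 in RE. Its states did not overlap either, and it was lower in RE than in M (−0.85 ± 0.15, limma adjusted p = 0.00442) and than in E (−0.60 ± 0.15, adjusted p = 0.0208). *Ccne1*, the cyclin that drives entry into S phase with Cdk2, was at 47.45 and 31.56 ppm in E, 58.58 and 54.83 in M and 29.31 and 34.26 in RE, and fell in M vs. RE (−0.84 ± 0.21, limma adjusted p = 0.0189). *Ccne2*, the related cyclin, did not pass it (−0.53, limma adjusted p = 0.0599). *Uhrf1*, which keeps DNA methylation through replication, rose in M (0.55, limma adjusted p = 0.0288) and fell in RE (−0.64, adjusted p = 0.0206). *Chaf1a*, a subunit of the histone chaperone CAF-1, was lower in RE than in M (−0.59, limma adjusted p = 0.0194) and than in E (−0.73, adjusted p = 0.0101).

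TGFβ1-treated against untreated cells (E vs. M) showed a smaller and mixed difference. Of the 46 genes 12 (26.1%) rose in M, a share near the 21.5% of all genes tested, and 1 (2.17%) fell, against 19.9%. *Dtl* was the only DEG (DEGs made up 8.58% of all genes in this direction and 8.39% in the other). The median log2 fold change was 0.17, beside 0.00 for all genes, and 24 genes were higher in both M libraries than in both E libraries, against 35.5% of all genes, while 4 were lower, against 35%. The sign of the median depended on the scaling. With library totals in place of TMM, which moved the median of all genes to −0.29, the 46 genes had a median of −0.13, with 17 higher in M and 29 lower. Relative to all genes the difference was 0.16 with totals and 0.17 with TMM. Of the 13 calls 4 were kept with totals, those of *Dtl*, *Mcm4*, *Pola1* and *Rfc4*, and 9 were lost, among them *Orc1* (0.44, adjusted p = 0.0998), *Gins2* (0.44, adjusted p = 0.131), *Pole* (0.50, adjusted p = 0.0587), *Rrm1* (0.44, adjusted p = 0.0607) and *Rrm2* (0.62, adjusted p = 0.0605). The count of 1 was 9 without the second E library and 0 without the second M library, and the count of 12 was 24 without the first E library, 13 without the second, 1 without the first M library, 3 without the second and 9 without either RE library.

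For part of the list the RE cells lay below the level of the E cells. In E vs. RE 12 of the 46 genes (26.1%) passed the test as lower in RE, against 12.9% of all genes tested, and 1 as higher, against 17.2%. *Rfc4* was the only DEG, and DEGs made up 3.17% of all genes in this direction and 6.2% in the other. The mean was lower in RE for 39 of the 46 genes, the median log2 fold change was −0.32 beside 0.01 for all genes, and 27 were lower in both RE libraries than in both E libraries, against 32.5% of all genes. Of the 12 lower genes, only *Cdc45*, which was higher in M, and *Rfc4*, which was lower in M, also passed the test in E vs. M. The 12 were *Cdc45*, *Gins1*, *Gins4*, *Prim1*, *Pold1*, *Rfc2*, *Rfc4*, *Rpa2*, *Fen1*, *Tyms*, *E2f1* and *Chaf1a*. This count was 31 without the second E library, 16 without the first, 2 without either M library or the second RE library and 0 without the first RE library, with medians between −0.51 and −0.20. In a fit of only the E and RE libraries 2 of the 13 calls were kept, those of *Chaf1a* and *Rfc4*, and without the filter on low values *Cdc45*, *Gins1*, *Prim1* and *Fen1* were lost. The count of 1 was 3 without the first E library and 0 without any 1 of the M and RE libraries.

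**Figure D3:**
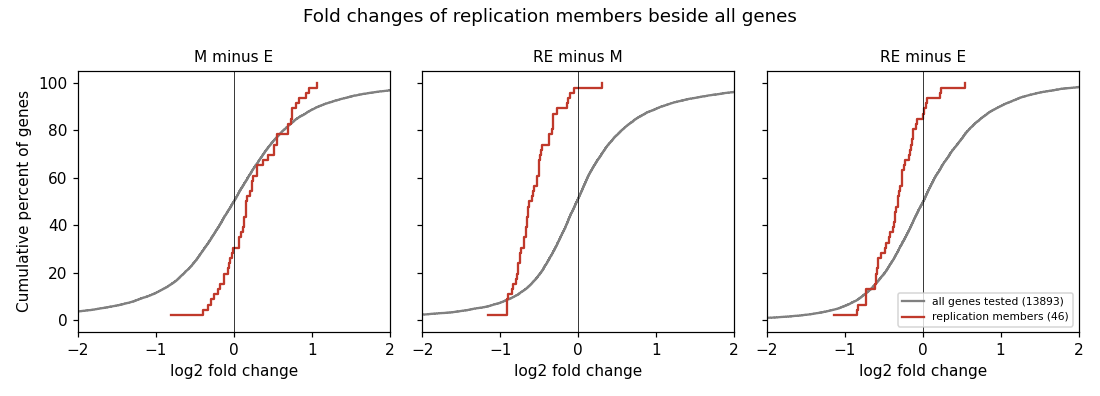
Cumulative percent of genes (vertical axis) up to each log2 fold change (horizontal axis, −2 to 2) in the 3 comparisons, for the 46 replication genes (red) and all 13893 genes tested (grey). The red curve lies to the left of the grey one over most of its course in RE minus M, where the medians are −0.61 and −0.02, and less so in RE minus E, where they are −0.32 and 0.01.

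The replicates of a state differed along the same direction as the states. The first E library was above the second for 38 of the 46 genes, with a median difference of 0.36 on the log2 scale, against 51.5% of all genes. The first M library was above the second for 45 of the 46 (median 0.12, against 57.8% of all genes), and the second RE library was above the first for all 46 (median of the first minus the second −0.22). Spread between replicates over all genes was widest in E, where the SD of the log2 difference was 0.558, against 0.318 in M and 0.309 in RE. The part of this difference between cultures in the comparisons was not tested.

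Most of the 46 genes followed a common course over the 6 libraries. *Lig1*, *Mcm7* and *Mcm3* followed the mean of the standardized genes most closely (Pearson's r 0.99 each), and *Rfc4* (0.46), *Dtl* (0.33) and *Pold2* (−0.35) least. The 3 genes outside the list with the most similar course were *Ccdc99* (r 0.999), *Cycs* (0.997) and *Aurka* (0.996), a mitotic kinase. *Ccdc99* was at 72.38 and 53.47 ppm in E, 81.99 and 73.02 in M and 40.39 and 50.59 in RE, and *Cycs* was below 0.5 ppm in every library. These correlations are a description over 6 libraries of 3 states, given without a test.

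A further 45 replication genes were all tested. In M vs. RE 17 of them fell (37.8%, against 14.6% of all genes tested) and 1 rose (2.22%, against 17%), with a median log2 fold change of −0.40. In E vs. M 7 rose and 7 fell (15.6% each, below the 21.5% and 19.9% of all genes), with a median of 0.05. In E vs. RE 16 passed the test as lower (35.6%, against 12.9%) and 3 as higher (6.67%, against 17.2%), with a median of −0.42. *Recql4*, a helicase that acts in origin firing, was at 55.14 and 87.16 ppm in E, 39.44 and 36.53 in M and 27.76 and 35.2 in RE, and was a DEG in E vs. RE (−1.15, limma adjusted p = 0.0098). *Rpa3*, the small subunit of RPA, was at 33.56 and 29.66, 18.07 and 16.06, and 13.83 and 15.71 ppm, and was the other DEG there (−1.09, limma adjusted p = 0.00292). *Rnaseh2c*, a subunit of the nuclease that removes ribonucleotides from DNA, was at 21.59 and 19.02, 11.89 and 12.24, and 9.025 and 11.57 ppm, and fell from E to RE (−0.98, limma adjusted p = 0.00676).

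Of 30 genes of G2 and mitosis all had a lower mean in RE than in M, and 14 fell (46.7%, against 14.6% of all genes tested), with a median log2 fold change of −0.53. In E vs. M 7 rose (23.3%, near the 21.5% of all genes), with a median of 0.30, and in E vs. RE 4 passed the test as lower (13.3%, near the 12.9% of all genes), with a median of −0.40. By limma 0 of the 30 passed the test in the opposite direction in any of the 3 comparisons, also at an unadjusted p below 0.05. *Bub1*, a kinase of the spindle checkpoint, was at 189.1 and 123.3 ppm in E, 234 and 191.7 in M and 93.71 and 112.1 in RE, and fell in M vs. RE (−1.05, limma adjusted p = 0.0104). *Cenpe*, a kinetochore motor, was at 296.1 and 277.8, 403.4 and 375.2, and 200.3 and 233.5 ppm, and fell in the same comparison (−0.85, limma adjusted p = 0.00332), as did *Ube2c*, an enzyme of the anaphase-promoting complex pathway (−0.80, adjusted p = 0.0165). *Ube2c* was at 185.3 and 139.2, 150.7 and 130.4, and 71.76 and 90.73 ppm and was also lower in RE than in E (−0.99, adjusted p = 0.00803).

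**Figure D4:**
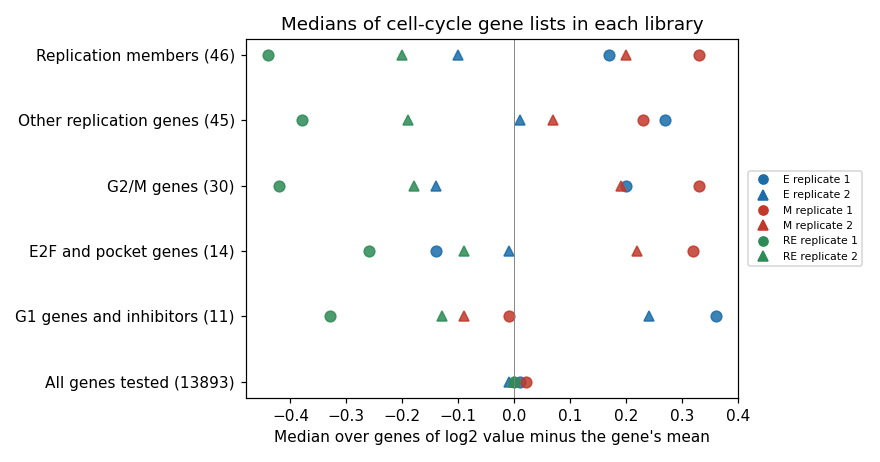
Each point is 1 library (E blue, M red, RE green, circles replicate 1 and triangles replicate 2), and its place on the horizontal axis is the median over a gene list of the log2 value minus the gene's mean. For the 46 replication genes the M libraries are at 0.33 and 0.20 and the RE libraries at −0.44 and −0.20, and for all 13893 genes tested the libraries lie between −0.01 and 0.02.

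Of 14 E2F, pocket protein and partner genes 6 rose (42.9%, against 21.5% of all genes tested) and 1 fell (7.14%, against 19.9%) with TGFβ1 (E vs. M). After its removal (M vs. RE) 3 rose (21.4%, against 17%) and 7 fell (50%, against 14.6%), and in E vs. RE 2 passed the test as higher (14.3%, against 17.2%) and 1 as lower (7.14%, against 12.9%). *E2f2*, an activator E2F, was at 21.3 and 21.1 ppm in E, 3.704 and 5.463 in M and 18.09 and 20.23 in RE, and was a DEG in E vs. M (−2.21 ± 0.21, limma adjusted p = 0.000213) and M vs. RE (2.06 ± 0.21, adjusted p = 0.00034). Its change in M vs. RE was thus opposite in sign to that of *E2f1*. *E2f7*, a repressor E2F, was at 39.93 and 73.64, 107 and 100.3, and 39.15 and 51.03 ppm, and rose in M (0.93, limma adjusted p = 0.0301) and fell in RE (−1.21, adjusted p = 0.0142). *Rbl2*, the pocket protein p130 of resting cells, was at 25.62 and 25.33 ppm in E, 50.1 and 51.39 in M and 93.73 and 84.48 in RE. It rose in M (0.99, limma adjusted p = 0.000929) and again in RE (0.81, adjusted p = 0.00291), and was a DEG in E vs. RE (1.80 ± 0.13, adjusted p = 0.000331).

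Of 15 G1 cyclins, kinases and inhibitors 11 were tested, of which 1 rose (9.09%, against 21.5% of all genes tested) and 5 fell (45.5%, against 19.9%) with TGFβ1 (E vs. M). After its removal (M vs. RE) 1 rose (9.09%, against 17%) and 3 fell (27.3%, against 14.6%), and in E vs. RE 3 passed the test as lower (27.3%, against 12.9%). Those that fell with TGFβ1 were *Myc*, *Ccnd2* and the inhibitors *Cdkn1a* (−0.48), *Cdkn1b* (−0.62) and *Cdkn2c* (−1.07, a DEG). *Cdkn1a* was also a DEG in E vs. RE (−1.16, limma adjusted p = 0.00208). The inhibitors *Cdkn1c*, *Cdkn2a* and *Cdkn2b* were not found by symbol, and *Mycn* did not pass the filter. *Myc* was at 228.5 and 334 ppm in E, 84.98 and 70.62 in M and 115.7 and 115.1 in RE, and was a DEG in E vs. M (−1.83, limma adjusted p = 0.000383) and E vs. RE (−1.26, adjusted p = 0.0039). *Ccnd1*, the cyclin that couples growth signals to the pocket proteins, was at 211.1 and 296.7, 181.7 and 185.3, and 91.23 and 101.8 ppm, and was a DEG in E vs. RE (−1.38, limma adjusted p = 0.00196). *Cables1*, a partner of cyclin-dependent kinases, was at 0.6259 and 0.6489 ppm in M and under the floor of 3 reads' worth in each E and RE library. It was at least 8.64-fold higher in M than in E and at least 9.68-fold higher than in RE, bounds that take the floor as the mean over the libraries of a group and that cover counting error only. *Cables1* passed the filter on low values through the M libraries alone, so it was tested only because it was high there. It is the 1 gene counted above as having risen in E vs. M and 1 of the 3 that fell in M vs. RE, and it adds no support to those counts.

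Differences of the replication genes moved with transcript length, taken from the GRCm38 annotation by symbol for all 46 and for 93.3% of the genes tested. Spearman's rho between log2 fold change and length across the 46 genes was 0.48 from E to M, −0.36 from M to RE and 0.34 from E to RE, beside 0.30, −0.02 and 0.35 across 12963 genes. In E vs. M the 12 genes under 2000 bases had a median log2 fold change of −0.03 and the 34 longer ones 0.30, beside −0.29 and 0.13 for all genes so divided. In M vs. RE the short ones were at −0.40, with 11 of 12 lower, and the long ones at −0.65, with all 34 lower, beside −0.02 and −0.03. With each library's trend on length and GC content removed, a choice made after the data were seen, 17 of the 46 rose in E vs. M (median 0.30) and 34 fell in M vs. RE (median −0.64). The part of length in the differences was not tested further, and genes are not independent replicates.

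**Figure D5:**
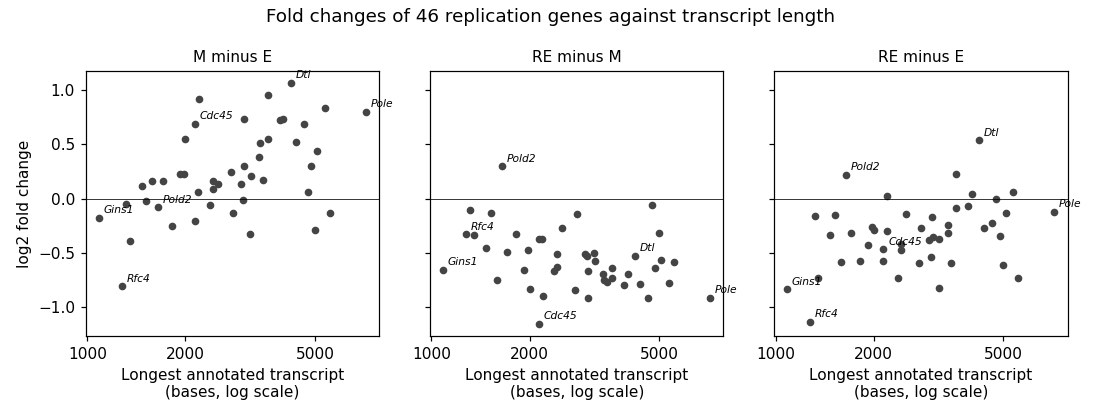
Each point is 1 of the 46 replication genes, with the length in bases of its longest annotated transcript on the horizontal axis (log scale) and its log2 fold change on the vertical axis, in the 3 comparisons. Short genes such as *Rfc4* and *Gins1* lie low in M minus E and RE minus E, and Spearman's rho is 0.48, −0.36 and 0.34 in the 3 panels.

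The state of the cultures was read from markers. The 8 epithelial markers summed to 2140 and 1990 ppm in E, 1410 and 1460 in M and 1030 and 1060 in RE. *Krt8*, *Krt18*, *Cdh1* and *Epcam* were above 100 ppm in each library, while *Krt19* was at most 0.1615 ppm in any. These markers did not share 1 course. In E vs. M *Epcam*, *Cldn7*, *Esrp1* and *Grhl2* were DEGs lower in M, whereas *Krt8* rose (0.67, limma adjusted p = 0.00919). *Grhl2* was a DEG higher in RE than in M (1.55, limma adjusted p = 0.00238). The 8 mesenchymal markers that TGFβ1 raises summed to 2530 and 5490, to 33700 in both M libraries, and to 11900 and 10900 in RE. Markers of other cell types were low. The 5 leukocyte markers reported here summed to between 6.82 and 10.6 ppm in E, 33.2 and 36.9 in M and 7.47 and 7.61 in RE, of which *Csf1r* made up 25.82 and 29.93 in M, while *Ptprc* and *Cd3e* were below 0.1 ppm in each library. The 4 endothelial markers summed to at most 2.73 ppm and the 4 adipocyte markers to at most 9.15 ppm, the latter in the first E library.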

How the data were processed

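RNA of E, M and RE cells was sequenced on an Illumina Genome Analyzer. Per the study's methods, the authors mapped unique reads to the NCBI-m37 mouse genome with Bowtie and TopHat2 and called DEGs with edgeR. The step that summed reads per gene and its annotation are not given in the sources used here, so overlapping and antisense genes may share coverage. The deposited table holds whole numbers per gene, read here as coverage (signal), that is, sequenced bases and not read counts, since 44.8% to 48.4% of the values from 1 to 400 in each library are multiples of 50. edgeR was therefore not run.

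Columns were matched to libraries by name. TMM factors without weights were computed in R 4.3.3 after trimming 30% by log ratio and 5% by level at each end. The filter kept a gene with 500 bases or more in 2 or more libraries. Over all 6 libraries limma 3.58.1 modelled log2(ppm + 0.1) with group as the only term, moderation with a trend on mean level and Benjamini-Hochberg adjustment over all 13893 genes. Such fold changes understate those of low genes. The fit was checked on simulated data. The 46 genes, the other lists, the marker lists and the tests were chosen with earlier results of these data known. Values in every library are given for the 3 genes of each role with the widest range of group means, for DEGs and for *Pcna*, *Mcm2*, *Ccne1* and *E2f1*, and for the 3 genes of each other list with the largest fold change among those that passed the test. *Pold2*, *Rfc1* and the other genes named with values were chosen after their values were seen. Replicate numbers come from the labels and name no shared culture or day. The alternatives were other size factors, other filters and pseudocounts of 0.025 and 1, a fit of 2 groups, array weights, a replicate block, a fold of 1.5, an adjusted p of 0.05 with the fold limit, and leaving out each library. The removal of each library's trend on length and GC content, with and without the block, was added after the data were seen. Counts lost to depth were not at issue for the 46 genes, and the floor of 3 reads' worth (150 bases, 0.0635 to 0.0781 ppm) covers counting error only. One item of the marker lists is not reported here.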

Additional observations from a re-analysis of the deposited data

How the results depend on the processing

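Median-of-ratios size factors, both other filters, both other pseudocounts and an adjusted p of 0.05 with the fold limit changed no count of the 46 genes by more than 1.5 times and no sign of a median. Without the filter 4 of the 27 calls in M vs. RE (*Cdc6*, *Lig1*, *Mcm7* and *Chaf1b*) and 4 of the 13 in E vs. RE (*Cdc45*, *Gins1*, *Prim1* and *Fen1*) were lost. Scaling by library totals ended 9 of the 13 calls in E vs. M and 19 of the 27 in M vs. RE, and gave 3 genes higher and 6 lower in E vs. M (median −0.13), and 8 lower and 0 DEGs in M vs. RE (median −0.41). A fit of only the 2 groups compared gave 1 higher (*Pold2*) and 40 lower in M vs. RE, and 2 lower, 0 higher and 0 DEGs in E vs. RE. Array weights gave 1 higher in M vs. RE and 0 higher in E vs. RE, and this fit and that of only the 2 groups both lost *Mcm5*, *Rpa1* and *Uhrf1* in E vs. M. A fold of 1.5 gave 6 DEGs in E vs. M and 7 in M vs. RE. With the trend on length and GC content removed there were 17 higher in E vs. M, 1 higher in M vs. RE and 0 DEGs in E vs. RE, and with the replicate block as well 0 DEGs in E vs. RE. The cause of these shifts was not tested, other than that fits of fewer libraries estimate the spread from fewer of them.

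With 1 library left out, its lone partner was assumed to vary like the other groups. DEGs ranged from 0 to 3 in E vs. M, from 0 to 1 in M vs. RE and from 0 to 5 in E vs. RE. Genes higher ranged from 1 to 24, 0 to 1 and 0 to 3, genes lower from 0 to 9, 1 to 40 and 0 to 31, and medians from 0.07 to 0.31, −0.73 to −0.48 and −0.51 to −0.20, in the same order.

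Deviations of same-numbered libraries from their group means correlated at 0.27 (E and M), 0.058 (E and RE) and 0.12 (M and RE), so the replicate numbers were not taken to pair the libraries. The replicate block gave 12 higher and 1 lower in E vs. M, 0 and 25 in M vs. RE, and 1 and 10 in E vs. RE, with the calls of *Lig1* and *Mcm7* in M vs. RE and of *Cdc45* and *Prim1* in E vs. RE lost.

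No called difference of a named gene changed sign. Those that did were small in the comparison reported. With library totals *Pold1* (−0.13), *Lig1* (−0.09) and *E2f1* (−0.05) in E vs. M, *Pcna* (0.07) and *Rfc5* (0.06) in M vs. RE and *Pola1* (−0.04), *Rrm1* (−0.06) and *Rrm2* (−0.08) in E vs. RE did so. With length and GC content corrected, with or without the block, so did *Gins1* (0.09), *Pcna* (0.16) and *Fen1* (0.10) in E vs. M and *Pola1* (−0.28), *Pcna* (0.07) and *Rrm1* (−0.14) in E vs. RE. Without 1 library, E vs. M ranged from −0.57 to 0.20 for *Gins1*, −0.29 to 0.25 for *Pcna*, −0.38 to 0.25 for *Fen1* and −0.01 to 0.44 for *Lig1*. E vs. RE ranged from −0.40 to 0.05 for *Orc1*, −0.63 to 0.17 for *Cdc6*, −0.28 to 0.15 for *Gins2*, −0.43 to 0.12 for *Pcna*, −0.58 to 0.01 for *Ccne1*, −0.01 to 0.13 for *Pola1*, −0.40 to 0.17 for *Pole*, −0.13 to 0.20 for *Rrm1* and −0.29 to 0.33 for *Rrm2*. For these 13 ranges 1 E library set the lowest value and the other E library the highest.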
